A study of Danio rerio with 6 samples.

Results

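The genes described here encode neurotransmitter receptors and ion channels of the zebrafish eye. They were chosen by name: every gene of the array annotation whose symbol starts with the stem of a potassium, calcium or sodium channel, of a glutamate, GABA, glycine or nicotinic acetylcholine receptor, or of a TRPC, TRPM or TRPV channel. The rule gave 38 genes of the 8793 named on the array, measured by 44 probe sets. Where a gene had several probe sets, the one brightest on average across the 6 arrays (in log2 units) stood for it, and no filter on low values was applied. The label fitted 35 of the 38, which are pore-forming or auxiliary subunits. The other 3 only carry a channel or receptor stem: trpc4apa and trpc4apb encode proteins named for association with a TRPC channel, and grinab belongs to a family of membrane proteins related to an inhibitor of cell death.

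The 6 samples came from wild-type embryos of the AB strain at 52 hours post fertilization, each a pool of 10 dissected tissues. In 3 pools the retina was taken alone. In the other 3 the retinal pigment epithelium, RPE for short, a pigmented sheet that backs the photoreceptors, was left attached. Strain, genotype and age were the same in both groups, and 33 ng of total RNA per pool was labelled with 2 cycles of amplification. Per the labels, the pools are separate biological replicates.

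Ion channels set the voltage of a cell membrane and carry the calcium that triggers transmitter release, and ligand-gated receptors turn a transmitter into current in the receiving cell. In the vertebrate retina glutamate carries the signal from photoreceptors to bipolar and ganglion cells, GABA and glycine are released by inhibitory amacrine cells, and acetylcholine by starburst amacrine cells. The RPE has channels of its own, which serve transport of ions and fluid across the epithelium.

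Array medians lay between 68.7 and 69.6 intensity units in retina and between 73.2 and 74.5 in retina with RPE, and the lower and upper quartiles lay closer together in the second group. Of 10 measured RPE and melanin genes, taken as 1 list, 9 were higher with RPE attached, rpe65a by 12.2-fold and dct by 6.33-fold. Markers of other tissues were higher as well, where 19.4% of all genes were higher and 26.2% of those with a mean log2 value under 6. Under 6 were 21 of 24 skeletal muscle markers and 8 of 10 leukocyte markers. Of the markers measured, 7 of 9 of neural crest and other pigment cells, 16 of 20 of mesenchyme and cartilage, 11 of 24 of skeletal muscle, 5 of 10 of leukocytes and 5 of 6 of endothelium were higher, and 0 of these lists' genes were lower. Of 12 skin and cornea markers 5 were higher and 2 lower, of 9 erythrocyte markers 3 and 1, and of 4 lens markers 1 and 0. The summed level of the mesenchyme markers overlapped between groups, at 7243 to 8258 in retina and 6822 to 7860 with RPE. Among retinal markers 3 of 9 of ganglion cells were lower and 1 higher, and 4 of 13 of amacrine and horizontal cells were lower and 2 higher. The largest fall on the ganglion cell list was that of atoh7, a log2 change of -1.18. Some lists share genes, such as csf1ra on those of neural crest and of leukocytes. Of 16 photoreceptor markers 5 were lower and 3 higher, and of 3 bipolar cell markers 1 and 0. Of all genes 17% were lower, and 24.6% of those with a mean log2 value of 6 or more. Under 6 were 1 of the 9 ganglion cell, 2 of the 13 amacrine and horizontal cell and 7 of the 16 photoreceptor markers. The summed level was 8941 to 11449 in retina and 7918 to 8297 with RPE for ganglion cell markers, and 8243 to 8666 and 5729 to 6522 for photoreceptor markers. Of the 16 photoreceptor markers, 11 had a log2 change above 0 and 5 below, with a median of 0.13. The lower sum therefore does not describe most of that list. The part of these shifts in the changes below was not tested. In pooled tissue, fewer cells of a type and less RNA per cell cannot be told apart.

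Comparing retina with RPE against retina asks which transcripts make up a larger or a smaller part of the mixed tissue than of retina alone. Among the 38 genes 7 rose and 3 fell, and 28 did not pass the test (limma, adjusted p under 0.05 over all 15502 probe sets). The 7 that rose were the calcium-activated potassium channel gene kcnn1b, the nicotinic receptor gene chrna7a, the calcium channel genes cacng2b and cacnb2b, the GABA receptor gene gabrb2a, the sodium channel gene scn1laa and the glycine receptor gene glra4b. The 3 that fell were the NMDA receptor gene grin1a, the kainate receptor gene grik1a and trpc4apa. No change reached 2-fold.

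These counts did not stand out from the array. Of all named genes, 36.4% were called, against 10 of 38 here, which is 26.3%. In all, 19.4% of genes rose and 17% fell, against 18.4% and 7.89% of the 38. Of the 35 that are subunits 7 rose and 2 fell (20% and 5.71%). The groups did not overlap in 16 of the 38, and in 50.7% of all genes. The median log2 change was 0.055 over the 38 and 0.037 over all genes. Cyclic loess and quantile normalization turned the median of the 38 to -0.025 and -0.019, and after quantile normalization 4 genes rose and 3 fell. The whole array shifted likewise: the median of all probe sets went from 0.045 to 0.0041 and 0.011, and after quantile normalization 2266 probe sets rose and 2276 fell. The count called fell from 10 to 5 without retina replicate 1, and to 6 without retina with RPE replicate 2 or without replicate 3 of that group. Without retina replicate 2, 5 genes were lower in place of 3.

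**Figure D1:**
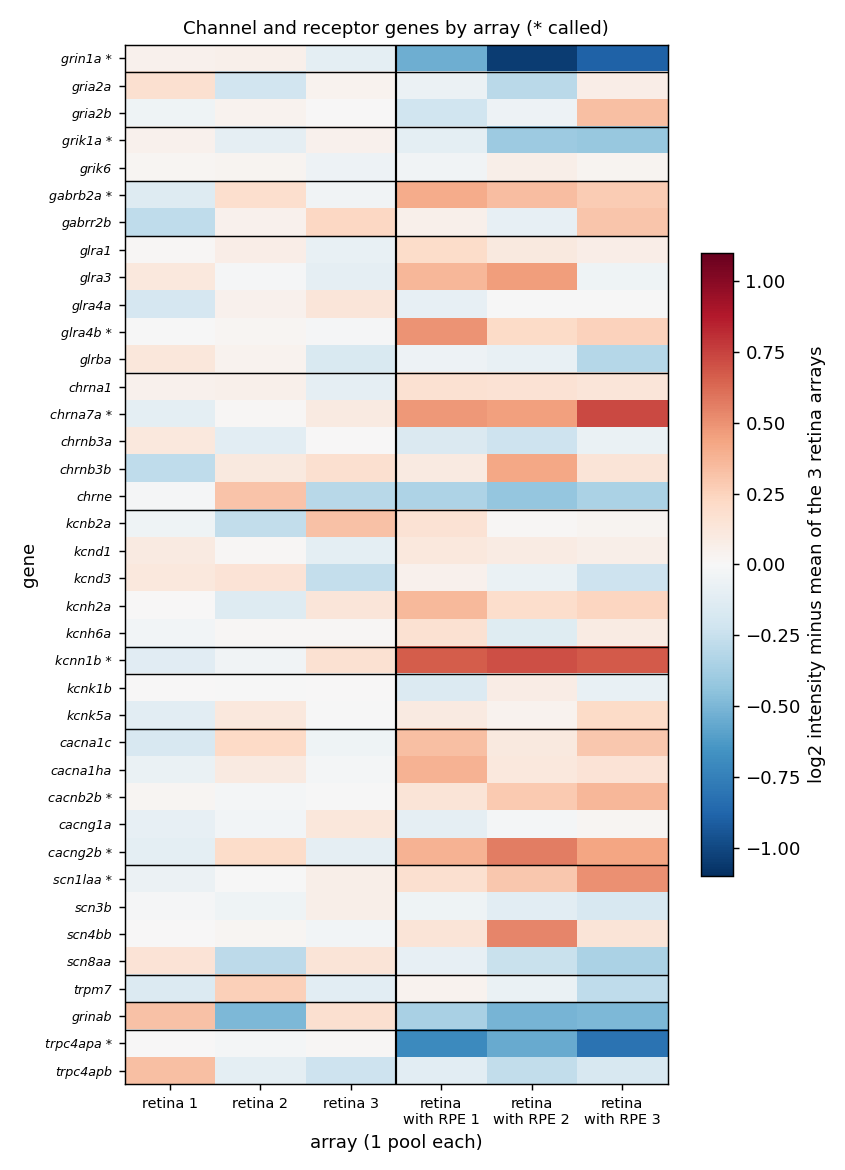
Each row is 1 channel or receptor gene and each column 1 array, and colour gives the log2 intensity minus the mean of the 3 retina arrays for that gene (red higher, blue lower). Asterisks mark the 10 called genes, and horizontal lines separate the families. The rows of kcnn1b and chrna7a are red, and those of grin1a and trpc4apa blue, in all 3 arrays with RPE.

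The direction of the calls went with the brightness of the probe sets. Of the 20 genes with a mean log2 value under 6, 5 rose and 0 fell, and of the 18 at 6 or more, 2 rose and 3 fell. The same tilt ran through the array, where 26.2% of dim genes rose and 4.74% fell, and 15.2% of the brighter genes rose and 24.6% fell. Probe sets also carry the letter A or S in their identifiers. Here 1 of 15 genes on A probe sets rose and 2 fell, and 6 of 23 on S probe sets rose and 1 fell. Over all genes 16.7% rose and 20.7% fell on A probe sets, and 22.3% and 13.2% on S probe sets. The part of brightness and of probe set class in single calls was not tested. No detection call came with the values, so a dim gene has no measured floor and its fold can understate a change. The lower quartile of the arrays was 24.9 to 26 in retina and 27.8 to 28.4 with RPE. After cyclic loess the 5 dim genes that rose had smaller log2 changes, of 0.20 to 0.54. The part of that offset in their rise was not tested.

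**Figure D2:**
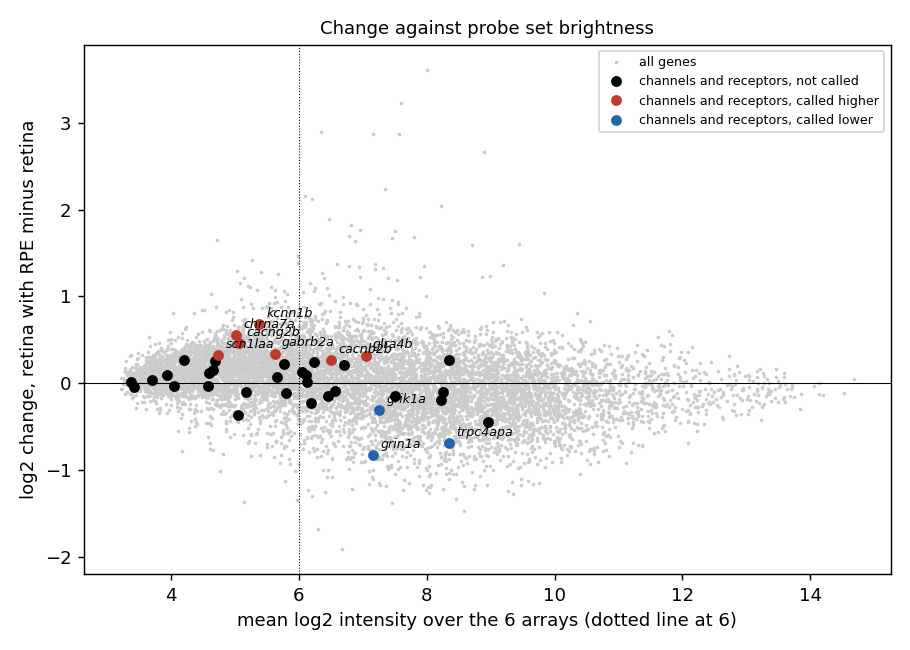
The vertical axis is the log2 change of retina with RPE minus retina and the horizontal axis the mean log2 intensity over the 6 arrays, with all 8793 named genes in grey and the 38 channel and receptor genes as large points. The 3 genes that fell lie to the right of the dotted line at 6, and 5 of the 7 that rose lie to its left.

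Glutamate excites through 3 classes of ionotropic receptor, named after NMDA, AMPA and kainate, and 5 of their subunit genes were measured. Of these 2 fell and 0 rose, where 17% of all genes fell and 19.4% rose. Both that fell had a mean log2 value above 6, and of genes at 6 or more 24.6% fell. The gene grin1a encodes a form of the subunit that every NMDA receptor needs, and its paralogue grin1b was not among the 38 genes. The probe set used for grin1a read 197.5, 198 and 177 in the retina pools and 131, 92.3 and 103 with RPE, so the groups did not overlap. It was 1.77-fold lower (log2 change -0.82 ± 0.127, SE, adjusted p = 0.0015, limma), from 191 ± 11.8 to 109 ± 20.2 (SD, n = 3). This was the largest change in size among the 38 genes, but it rested on 1 of 2 probe sets. The dimmer probe set of grin1a read 34.6, 34.7 and 36.3 in retina and 38.4, 39.3 and 39.0 with RPE, a log2 change of 0.14 that was not called (adjusted p = 0.18). The log2 ratio of the brighter over the dimmer probe set was 2.44 ± 0.128 in retina and 1.47 ± 0.279 with RPE (SD, n = 3), without overlap (exact permutation p = 0.1, the smallest that 3 against 3 arrays allow, and 0.15 adjusted over 6 such pairs of probe sets).

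The kainate receptor gene grik1a read 175.5, 159 and 176 in retina and 158, 129 and 127 with RPE. Its groups were separate, although the lowest retina pool and the highest pool with RPE lay close together. The log2 change was -0.31 ± 0.105 (SE, adjusted p = 0.044). That call was lost without retina replicate 1 (adjusted p = 0.103) or 3 (0.1004) and when replicate 2 (0.145) or 3 (0.152) of retina with RPE was dropped. It was lost in 12 of 16 alternatives in all, among them centring on ribosomal protein genes (0.127), quantile normalization (0.075), cyclic loess (0.061), array weights (0.057), a trended robust variance (0.056), a pseudocount of 16 (0.053) and the filter on dim probe sets (0.053). The other kainate gene, grik6, stayed between 9.91 and 10.7 on all 6 arrays. The AMPA receptor genes gria2a and gria2b encode the subunit that keeps calcium out of the channel. The first read 42.2, 32.4 and 38.3 in retina and 35.7, 30.5 and 39.4 with RPE. The second read 67.1, 71.3 and 69.6 in retina and 59.4, 66.5 and 87.4 with RPE. Both pairs of groups overlapped, with log2 changes of -0.097 and 0.018 and adjusted p of 0.58 and 0.93. The gene grinab, bright but not a receptor subunit, read 724, 410 and 653 in retina and 453, 407 and 411 with RPE. Its log2 change of -0.45 ± 0.181 was not called (adjusted p = 0.078) and retina replicate 2 read as low as the pools with RPE. Without that pool, picked after its value was seen, the change was -0.70 and passed (adjusted p = 9.9e-04). Leaving out retina replicate 1 or 3 instead gave no call for grinab (adjusted p = 0.239 and 0.197).

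GABA and glycine open chloride channels that usually inhibit mature neurons. Of 7 subunit genes 2 rose and 0 fell, where 19.4% of all genes rose and 17% fell. The GABA-A receptor beta subunit gene gabrb2a read 39.5, 49.5 and 42.6 in retina and 57.8, 55.2 and 53.2 with RPE. Every pool with RPE was above every retina pool, and the rise was 1.27-fold (log2 change 0.34 ± 0.101, SE, adjusted p = 0.027). The probe set is dim, with a mean log2 value of 5.62. The call was lost when any array other than retina replicate 2 was left out (adjusted p 0.056 to 0.087), and after cyclic loess (0.172) and quantile normalization (0.150). The gene gabrr2b encodes a rho subunit, a type of GABA receptor typical of retinal bipolar cells. It read 55.4, 69.4 and 79.0 in retina and 69.98, 63.2 and 83.0 with RPE, with overlapping groups and a log2 change of 0.091 (adjusted p = 0.65).

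The glycine receptor alpha gene glra4b was even in retina, at 118, 120 and 117, and higher in each pool with RPE, at 167, 137 and 141. It rose 1.25-fold (log2 change 0.32 ± 0.0959, SE, adjusted p = 0.029). Without retina replicate 1 or 3 the adjusted p was 0.061 and 0.060, and without retina with RPE replicate 1 or 3 it was 0.099 and 0.053. Its paralogue glra4a read 21.2 to 26.4 in retina and 22.6 to 24.0 with RPE by the brighter probe set, with overlap and a log2 change of -0.031. The second glra4a probe set read 17.5 to 19.0 and 20.4 to 24.8, without overlap, and its change of 0.26 was not called (adjusted p = 0.061). For glra1, which encodes the alpha subunit of the main spinal glycine receptor in mammals, retina read 63.6, 66.1 and 59.4 and retina with RPE 72.6, 68.0 and 66.4. Those groups were separate by a narrow margin, and the log2 change of 0.13 was not called (adjusted p = 0.27). The alpha subunit gene glra3 read 22.0 to 25.6 in retina and 30.4, 32.5 and 22.9 with RPE. Retina with RPE replicate 3 lay inside the retina range, and the change of 0.26 passed only without that pool (0.41, adjusted p = 0.027). The beta subunit gene glrba, whose product anchors glycine receptors at synapses, read 100.7, 95.02 and 82.4 in retina and 88.7, 87.5 and 74.4 with RPE, with overlap and a log2 change of -0.15 (adjusted p = 0.31).

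**Figure D3:**
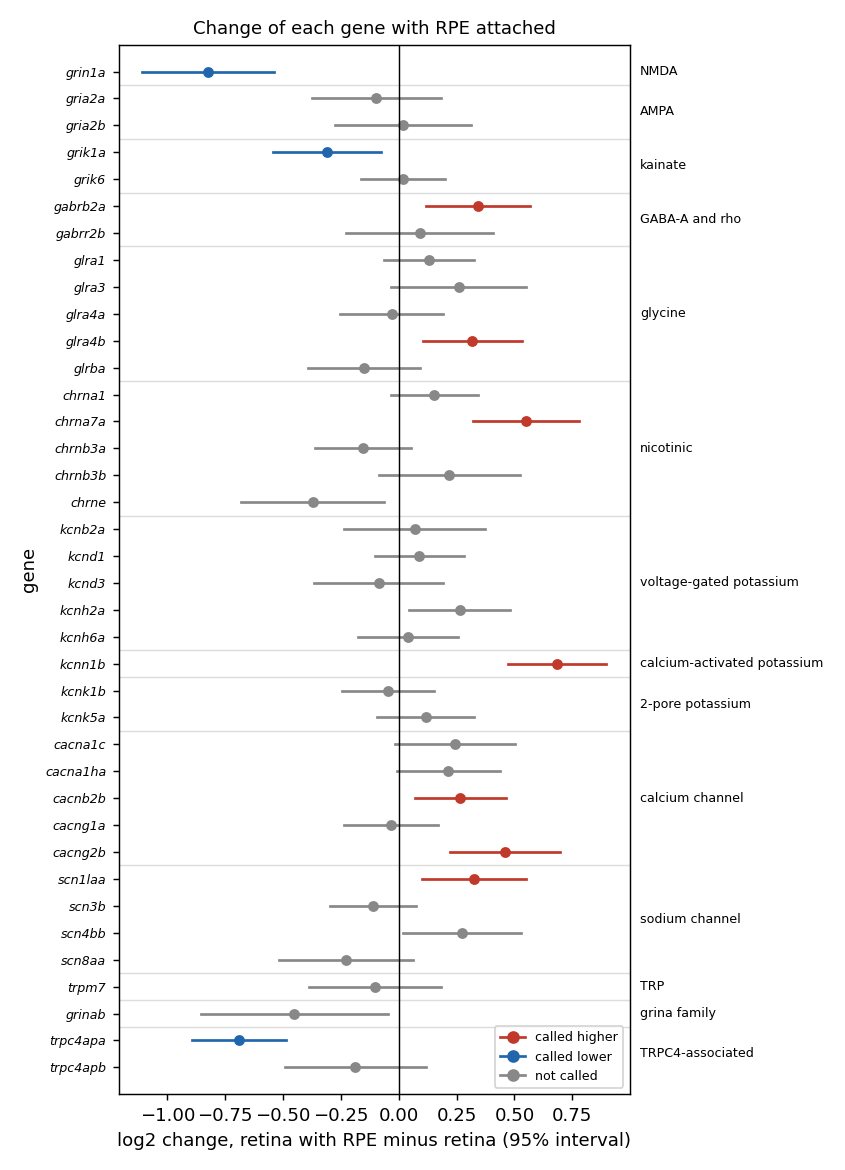
Points are log2 changes of retina with RPE minus retina for the 38 genes, and lines their 95% limma intervals over 3 against 3 arrays. Genes are ordered by family, with red for genes called higher, blue for genes called lower and grey for the rest. Each family of more than 1 gene holds genes that were not called.

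Nicotinic receptors are cation channels opened by acetylcholine, built from one set of subunits in neurons and another in skeletal muscle. Of 5 genes, 1 rose and 0 fell (20% higher, against 19.4% of all genes). The neuronal gene chrna7a, whose product can form a calcium-permeable channel without other subunits, read 24.8, 27.1 and 28.7 in retina and 37.4, 36.7 and 44.3 with RPE. The rise was 1.46-fold, with a 95% interval of 1.25 to 1.72 (log2 change 0.55 ± 0.102, SE, adjusted p = 0.0035). It passed in each of the 16 alternatives that gave it a value, at adjusted p of 0.0014 to 0.017. The probe set is dim, with a mean log2 value of 5.02, and the filter on dim probe sets left it out. Its retina readings lay near the lower quartile of those arrays, 24.9 to 26. The neuronal subunit genes chrnb3a and chrnb3b did not pass. The first read 207, 176.5 and 192 in retina and 172, 164 and 182 with RPE. The second read 41.3, 54.2 and 56.7 in retina and 53.8, 67.3 and 55.3 with RPE. Their log2 changes were -0.15 and 0.22 (adjusted p = 0.23 and 0.24).

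Muscle subunit genes were also measured. Of 24 muscle markers 11 rose, eno3 by 2.59-fold and acta1a by 1.78-fold, and 13 were not called. The median log2 change of the 24 was 0.25. Of them, 21 had a mean log2 value under 6, where 26.2% of all genes rose. The summed level of those markers was 894 to 951 in retina and 1205 to 1358 with RPE. The alpha subunit gene chrna1 read 24.7, 24.9 and 22.3 in retina and 26.9, 26.6 and 26.2 with RPE. Those groups did not overlap, but the log2 change of 0.15 ± 0.0842 was not called (adjusted p = 0.18). The gene chrne, for the epsilon subunit of the mature muscle receptor in mammals, read 37.5, 46.9 and 30.6 in retina and 29.8, 28.1 and 29.6 with RPE. Its log2 change of -0.37 missed the threshold (adjusted p = 0.062), and passed in 5 of 15 alternatives. These were cyclic loess (adjusted p = 0.023), quantile normalization (0.020), a trended robust variance (0.039), the replicate number as a block (0.049) and leaving out retina replicate 3 (-0.52, 0.010). Without retina replicate 1 or 2 chrne was not called (adjusted p = 0.110 and 0.163). The skeletal muscle calcium channel gamma gene cacng1a read 15.6, 16.3 and 18.1 in retina and 15.5, 16.4 and 16.8 with RPE, a log2 change of -0.033 (adjusted p = 0.80). The genes musk and rapsn, which gather nicotinic receptors at the muscle synapse, had log2 changes of 0.0024 and 0.11 and were not called (adjusted p = 0.98 and 0.37).

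Potassium channels bring a membrane back towards rest. Of 8 genes 1 rose and 0 fell (12.5% higher, against 19.4% of all genes). The 1 that rose, kcnn1b, had the largest rise of the 38. It encodes a small-conductance channel opened by internal calcium, which shapes the pause after an action potential. It read 30.1, 31.9 and 36.8 in retina and 52.2, 53.7 and 52.2 with RPE, so the pools with RPE lay close together and well above retina. The rise was 1.61-fold, with an interval of 1.39 to 1.86 (log2 change 0.68 ± 0.0954, SE, adjusted p = 9.1e-04). Its 16 alternatives gave log2 changes of 0.49 to 0.77, all called. The probe set is dim, with a mean log2 value of 5.38.

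None of the 5 voltage-gated potassium channel genes passed. The gene kcnh2a, which belongs to the ether-a-go-go family that sets cardiac repolarization, came nearest at 298, 269 and 326 in retina and 379, 340 and 349 with RPE. The groups were separate, and the log2 change of 0.26 ± 0.0977 was not called (adjusted p = 0.061). It passed in 4 of 16 alternatives. These were cyclic loess (0.37, adjusted p = 0.018), quantile normalization (0.38, 0.015), centring on ribosomal protein genes (0.32, 0.044) and leaving out retina replicate 3 (0.33, 0.036). Leaving out any other single array gave no call for kcnh2a (adjusted p 0.093 to 0.180). Its relative kcnh6a read 11.7 to 14.4 over all arrays. The genes kcnd1 and kcnd3, for fast inactivating channels, and kcnb2a, for a slow delayed rectifier, had overlapping groups and log2 changes of 0.090, -0.087 and 0.068. The 2-pore genes kcnk1b and kcnk5a, which encode background channels, read 9.81 to 11.5 and 21.4 to 26.8 over all arrays, with changes of -0.047 and 0.12.

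Voltage-gated calcium channels couple depolarization to calcium entry. Of 5 genes 2 rose and 0 fell (40% higher, against 19.4% of all genes), and both that rose encode auxiliary subunits. The product of cacng2b, stargazin in mammals, also carries AMPA receptors to synapses. Its gene read 26.6, 33.02 and 26.7 in retina and 37.4, 42.2 and 38.7 with RPE, with every pool with RPE above the highest retina pool. The rise was 1.38-fold (log2 change 0.46 ± 0.107, SE, adjusted p = 0.0095), and lost its call after quantile normalization (adjusted p = 0.051). The beta subunit gene cacnb2b, which brings the pore to the membrane, read 84.1, 81.6 and 82.1 in retina and 91.0, 101.1 and 107 with RPE. It rose 1.203-fold (log2 change 0.27 ± 0.0890, SE, adjusted p = 0.042). That call was lost when any array other than retina with RPE replicate 1 was left out (adjusted p 0.069 to 0.143). It was lost in 12 of 16 alternatives in all, among them cyclic loess (0.097), quantile normalization (0.077), a trended robust variance (0.061), the filter on dim probe sets (0.057), centring on ribosomal protein genes (0.053) and array weights (0.052).

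The pore genes were not called. The L-type gene cacna1c read 61.2, 80.7 and 67.2 in retina and 86.9, 74.4 and 85.1 with RPE. Its retina replicate 2 lay among the pools with RPE, and without it the log2 change went from 0.24 to 0.35 and passed (adjusted p = 0.030). That pool was picked after its value was seen, and without retina replicate 1 or 3 instead cacna1c was not called (adjusted p = 0.352 and 0.235). The T-type gene cacna1ha, for a channel that opens near rest, read 92.2, 104 and 95.8 in retina and 127, 105 and 108 with RPE. Its groups were separate by a small margin, with a log2 change of 0.21 (adjusted p = 0.12).

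**Figure D4:**
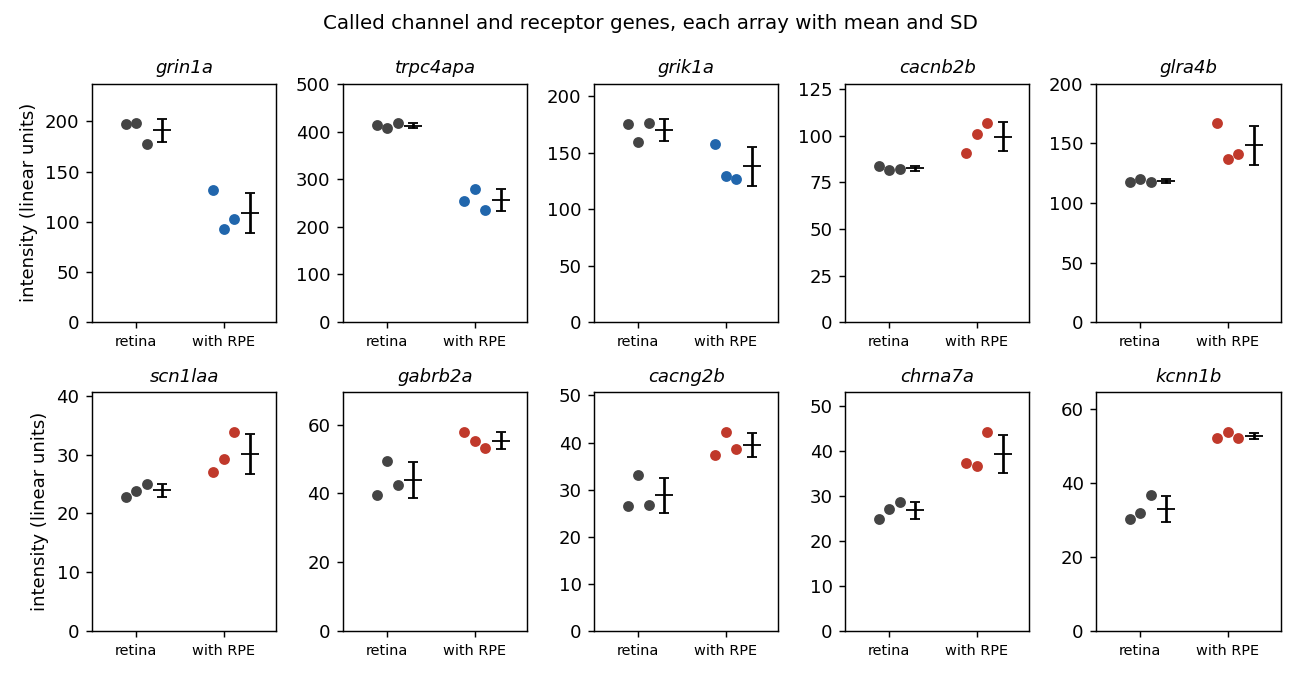
Each panel shows 1 of the 10 called genes, with the linear intensity of the 3 retina pools (dark) and the 3 pools with RPE (red where called higher, blue where called lower), and the mean with SD beside them. In each panel the groups are separate, by least in grik1a, where the nearest pools read 159 and 158.

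Sodium channels start the action potential. Of 4 genes 1 rose and 0 fell (25% higher, against 19.4% of all genes). The gene that rose, scn1laa, had a mean log2 value of 4.74, and of all genes under 6, 26.2% rose. The pore gene scn1laa read 22.8, 23.9 and 25.02 in retina and 27.1, 29.3 and 33.8 with RPE, 1.25-fold higher (log2 change 0.33 ± 0.101, SE, adjusted p = 0.032). Without retina replicate 1 or 2, or without replicate 2 or 3 of retina with RPE, the adjusted p was 0.053 to 0.115, after cyclic loess 0.140, after quantile normalization 0.147 and with a pseudocount of 16 0.057. The other pore gene, scn8aa, which serves the start of the axon and its nodes in mammals, read 87.7, 64.7 and 87.3 in retina and 74.2, 66.7 and 62.3 with RPE. Retina replicate 2 was as low as the pools with RPE. The log2 change of -0.23 was not called (adjusted p = 0.20), and without that pool it was -0.37 and passed (adjusted p = 0.022). That pool was picked after its value was seen, and without retina replicate 1 or 3 instead scn8aa was not called (adjusted p = 0.436 and 0.420). The beta subunit genes scn3b and scn4bb, which tune the gating of the pore, changed by -0.11 and 0.27. The second was separate between groups, at 16.5 to 17.1 in retina and 18.5 to 24.4 with RPE, and missed the threshold (adjusted p = 0.090). It passed in 1 of 15 alternatives, the trended robust variance (adjusted p = 0.048).

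The remaining genes were trpm7 and the pair named for association with a TRPC channel. The product of trpm7 joins a cation channel to a kinase, and zebrafish mutants in it lose melanin-bearing skin cells. Its brighter probe set read 285, 378 and 292 in retina and 324, 300.3 and 260 with RPE, with overlap and a log2 change of -0.10 (adjusted p = 0.56). The dimmer one read 54.5, 56.3 and 59.1 in retina and 69.7, 66.8 and 76.0 with RPE, without overlap, and was called higher by 1.25-fold (adjusted p = 0.019). Whether trpm7 was called therefore depends on the probe set. The brighter one is marked A and the dimmer one S.

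The gene trpc4apa, whose mammalian counterpart is an adaptor of a ubiquitin ligase, fell. It read 414, 407 and 417 in retina and 253.5, 280.5 and 235 with RPE, 1.61-fold lower, with an interval of 1.40 to 1.86 (log2 change -0.69 ± 0.0908, SE, adjusted p = 6.8e-04). It passed in all 17 alternatives, at log2 changes of -0.76 to -0.57. Its paralogue trpc4apb had 4 probe sets, and the pair that lay close in mean log2 value, at 8.23 and 8.17, gave different answers. The brighter read 402, 297 and 273 in retina and 295, 265 and 282 with RPE, a log2 change of -0.19 (adjusted p = 0.31). The next read 438.5, 436.5 and 310 in retina and 195, 254 and 197 with RPE, and was called at -0.87 ± 0.153 (SE, adjusted p = 0.0027). The other 2 probe sets had log2 changes of -0.27 and -0.018 and were not called. All 4 estimates were below 0, but only 1 of 4 was called. The groups overlapped for the brightest probe set and for the dimmest, whose change was close to none (adjusted p = 0.89).

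**Figure D5:**
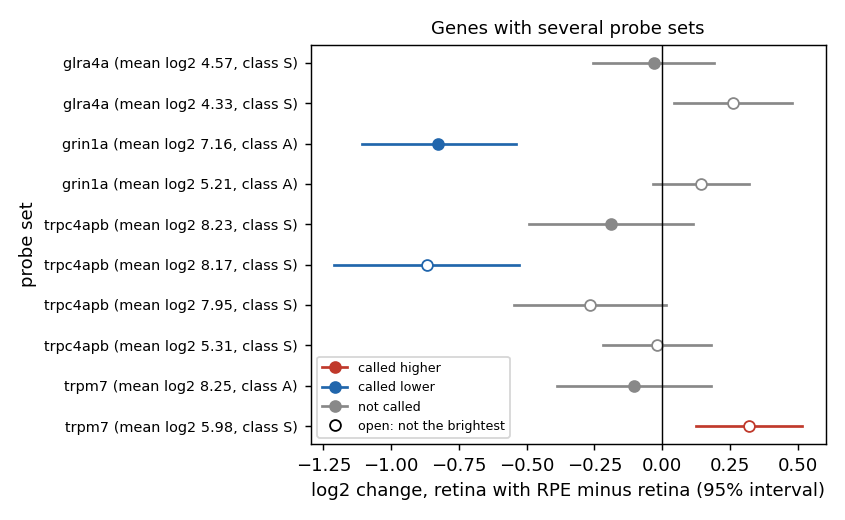
Points are log2 changes of retina with RPE minus retina for each probe set of the 4 genes with more than 1, and lines the 95% limma intervals. Filled points are the probe sets used for the gene and open points the others, with the mean log2 intensity and the letter in the identifier beside each. The probe sets of grin1a, trpm7 and glra4a lie on both sides of 0, and those of trpc4apb all lie below it.

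Within 4 pairs of paralogues, chosen after their values were seen, the log2 ratio of the a over the b gene was compared between the groups. The ratio of glra4a over glra4b was -2.30 ± 0.163 in retina and -2.65 ± 0.204 with RPE, without overlap (exact permutation p = 0.1, the smallest possible, and 0.267 adjusted over the 4 pairs). The differences for trpc4apa over trpc4apb, chrnb3a over chrnb3b and gria2a over gria2b were -0.50, -0.37 and -0.11, with overlap in each (exact permutation p = 0.2, 0.2 and 0.6). With 3 against 3 arrays no pair could pass, so the ratios are given as a description. They also depend on the probe set, as a comparison added after seeing the data showed. With the second glra4a probe set the difference for that pair went from -0.35 to -0.057. With the other trpc4apb probe sets that of trpc4apa over trpc4apb was 0.18, -0.42 and -0.67, the first from the probe set almost as bright as the one used.

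Spread between replicate pools differed widely among the genes. The coefficient of variation over the 3 retina pools ranged from 0.279% to 27.6%, with a median of 7.98%, and over the 3 pools with RPE from 1.29% to 20.5%, with a median of 8.31%. The most variable in retina was grinab. The least was kcnk1b, which read only 10.8 to 10.9 there, with a mean log2 value of 3.42. With no measured floor, such a small spread need not mean a steady transcript level.

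Genes of the same signalling machinery outside the naming rule were set beside them. Of 22 other transmitter receptor genes, 6 rose and 0 fell, with a median log2 change of 0.19. That is 27.3% higher, near the 26.2% of all dim genes, and 17 of the 22 had a mean log2 value under 6. Of the 6, 4 encode alpha-2 adrenergic receptors, which respond to noradrenaline, with adra2db at 0.48 ± 0.0846, adra2c at 0.47 ± 0.0935, adra2da at 0.39 ± 0.0990 and adra2a at 0.33 ± 0.107 (log2 change, SE). The fifth receptor of that class, adra2b, was at 0.23 and not called (adjusted p = 0.061). The others were the dopamine receptor gene drd2b at 0.38 and the muscarinic receptor gene chrm2a at 0.32. The GABA-B receptor gene gabbr1a was at 0.022 and not called.

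Of 21 other channel genes, 1 rose and 5 fell (4.76% and 23.8%, against 19.4% and 17% of all genes), with a median log2 change of -0.10. Of the 21, 17 had a mean log2 value under 6, where 26.2% of all genes rose and 4.74% fell. Only 6 were on S probe sets. The pacemaker channel gene hcn2b rose by 0.42, and among those that fell were the chloride transporter gene clcn4 at -0.49 and the store-operated calcium channel genes orai1b at -0.46 and orai2 at -0.33. Of 19 genes of transmitter synthesis, uptake and vesicle loading, 4 rose and 3 fell (21.1% and 15.8%). Those that fell were gad1b, which makes GABA, at -1.04, slc18a3a, which loads acetylcholine into vesicles, at -0.65, and slc32a1, which loads GABA and glycine, at -0.62. The second GABA synthesis gene, gad2, was at 0.17 and not called. The serotonin synthesis gene tph1b rose by 0.70, the transporter gene slc6a17 by 0.55 and the glial glutamate transporter gene slc1a3a by 0.32.

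Of 24 genes of receptor scaffolds and channel partners, 5 rose and 5 fell (20.8% each). The scaffold genes dlg1a and dlg3 rose by 0.77 and 0.51 and the synaptic adhesion gene nlgn1 by 0.54. The pentraxin gene nptx1l fell by 0.75 and the scaffold genes lin7b and lin7a by 0.72 and 0.44. The name rule also took in dlgap5, which acts at the mitotic spindle and not at synapses and rose by 0.44. Of 24 ion pump genes 6 rose and 3 fell (25% and 12.5%), with a median of 0.14. Over all genes 19.4% rose and 17% fell. Of the 24 pump genes 12 had a mean log2 value under 6, where 26.2% of all genes rose and 4.74% fell.

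Of 35 genes of known retinal, RPE or muscle roles listed to be given wherever measured, 11 had a named probe set, and all 11 are given above. The RPE potassium channel gene kcnj13 and the melanocyte and bipolar cell channel genes trpm1a and trpm1b were not analysed here.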

How the data were processed

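The authors deposited 1 linear intensity for each probe set on each Affymetrix zebrafish array. RMA, affy and R 2.2.0 are named, without roles, per the submitters' processing notes. The table held 15617 probe sets. Controls (115) were left out and 15502 tested. By the platform annotation 10795 had 1 gene, 135 several and 4572 none listed. All 38 symbols were unchanged in a current gene list. The study's RPE estimate needs tissue yields, which are not used here, so pools were compared directly.

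Log2 intensities were compared by limma 3.58.1 in R 4.3.3 (lmFit, eBayes, 2-sided), with p-values adjusted by Benjamini-Hochberg across the tested probe sets. The code was tested on simulated data. All changes are retina with RPE minus retina. Pools of the same replicate number were not taken as pairs. Correlations of their deviations were 0.175, 0.0786 and 0.130, and those of the other combinations -0.152 to 0.029. With few pools per group these values do not settle whether pools were paired. Genes, lists and alternatives (block, normalization, centring, dim filter, variance model, weights, pseudocount of 16, probe set choice, threshold, arrays left out) were chosen with earlier results of these data known. Any of the 38 genes could be named, with values for each array for called genes with separate groups and a list of 35 genes. Values for each array of other uncalled genes, such as kcnh2a, glra3 and cacna1c, were added after they were seen. Lists name up to 3 called genes in each direction, and further genes of the lists were chosen after their values were seen. Permutation tests used scipy 1.17.1 and figures matplotlib 3.10.9.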

Additional observations from a re-analysis of the deposited data

How the results depend on the processing

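Of the 10 called genes, kcnn1b, chrna7a and trpc4apa kept their call in every alternative that gave them a value, and grin1a in all but the use of its dimmer probe set (0.1441). The numbers of genes called, higher and lower were 10, 7 and 3. With the replicate number as a block 5 were lower, chrne and grinab joining (adjusted p = 0.049 and 0.030), and no other gene changed its call. Every pool correlated best with the pool of its own replicate number, which is a hint from the data and not the design. The sample titles also carry codes whose numbers differ from the replicate numbers for some pools with RPE, so the labels do not settle which pools match. After quantile normalization 4 were higher: kcnn1b, chrna7a and glra4b kept their call and kcnh2a joined (adjusted p = 0.015). The calls of gabrb2a, cacng2b, scn1laa and cacnb2b were lost. Among the 3 lower, chrne took the place of grik1a. Leaving out dim probe sets keeps 18 of the 38 genes, and neither kcnn1b nor chrna7a is among them. It gave 3 called and 1 higher, with 3112 probe sets called in all. An adjusted p under 0.01 gave 5 called and 3 higher, with 2666 probe sets in all, and S probe sets alone, which cover 24 genes, gave 1 lower. Leaving out single arrays gave 5 to 11 called, 3 to 6 higher and 2 to 5 lower, and 3439 to 5104 probe sets in all. Of the calls of all probe sets, 54.9% lay higher, and 66.0% after centring on ribosomal protein genes, which raised their median log2 change to 0.10 from 0.045, and 37.9% without dim probe sets.

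Sign changes were otherwise limited to 12 genes that were not called. Cyclic loess gave -0.0847 for gria2b, -0.0123 for gabrr2b, -0.0747 for kcnb2a, -0.0071 for kcnk5a, -0.0025 for kcnd1, -0.0368 for kcnh6a and -0.0411 for grik6. Quantile normalization gave -0.0802, -0.015, -0.0665, -0.0062, -0.0028, -0.0236 and -0.0295 for the same genes and 0.0067 for trpm7. Centring on ribosomal protein genes gave 0.0252 for glra4a, 0.0238 for cacng1a and 0.0092 for kcnk1b, and array weights -0.0133 for gria2b. The dimmest probe set of each gene gave 0.2616 for glra4a and 0.3214 for trpm7, and S probe sets alone 0.3214 for trpm7. Leaving out single arrays gave -0.1408 to 0.1381 for gria2b, -0.0483 to 0.2068 for gabrr2b, -0.1772 to 0.027 for trpm7, -0.0664 to 0.2273 for kcnb2a, -0.1219 to 0.0358 for glra4a, -0.0797 to 0.0304 for cacng1a, -0.0103 to 0.0439 for grik6, -0.0209 to 0.1287 for kcnh6a, -0.1133 to 0.0031 for kcnk1b and -0.2009 to 0.0026 for gria2a. The cause of these changes was not tested. The number of arrays, and the lack of a background level for dim probe sets, limit what can be shown.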
